A study of Mus musculus with 6 samples.

Results

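The genes described here encode 10 proteins of endothelial cell borders and were taken from the matrix by their symbols: Cdh5, Jup, Cldn5, Ocln, Tjp1, F11r, Jam2, Jam3, Esam and Pecam1. Each symbol matched 1 row of a deposited matrix of 55487 genes. Of the 10, 9 had a mean of at least 1 FPKM (fragments per kilobase of gene model, scaled to the counted fragments of the library) and entered the test, among 14962 genes that did; Ocln did not.

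RNA came from kidney endothelial cells of 6 mice. All 6 had been fed a high-fat diet (60% of energy as fat) for 4 weeks, starting at 8 weeks of age. The 3 control mice were wild-type littermates. The 3 I-PpoI mice carried VE-cadherin Cre with ROSA26-STOP-I-PpoI in mouse 1, ROSA27-STOP-I-PpoI in mouse 2 and ROSA28-STOP-I-PpoI in mouse 3, as the labels spell them. The VE-cadherin driver directs Cre to endothelium, where it removes the STOP and switches on I-PpoI, an intron-encoded nuclease that cuts both DNA strands. Whole kidneys were digested with collagenase and the cells were pulled out with a CD31 antibody on magnetic beads. A pair of the genes described here are thus part of the method: VE-cadherin is the product of Cdh5 and CD31 that of Pecam1.

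Endothelial cells are held together by adherens junctions, in which VE-cadherin binds its like on the next cell and is tied to actin through catenins, and by tight junctions, in which claudins and occludin seal the cleft on a scaffold of zonula occludens proteins. Junctional adhesion molecules, ESAM and PECAM-1 are immunoglobulin-type proteins that sit at the same borders and take part in leukocyte passage. In the kidney, tubule epithelium lies beside the capillaries and has junctions of its own, which share ZO-1, occludin, JAM-A and plakoglobin with endothelium and lack VE-cadherin and claudin-5.

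The libraries of I-PpoI mice 1 and 2 stood apart from the other 4. Recovered fragments numbered 1590957 and 834149 there, 13324303 for I-PpoI mouse 3, and 14081222 to 16954480 per control. Gene models annotated as antisense took 14.7% and 10.02% of their fragments, against 0.119% to 0.225% elsewhere. Mitochondrial genes took 6.42%, 38.2% and 48.2% of fragments for I-PpoI mice 1, 2 and 3, and 8.83% to 18.3% per control. Of the mitochondrial fragments, those of minus-strand genes made up 68.2% and 70.6% in I-PpoI mice 1 and 2, against 0.0473% to 0.0821% in the other 4 libraries. The strand setting of the counting is not given in the labels; values of these 2 libraries, their mitochondrial shares and totals included, are printed as deposited and may not be sense expression. The Y-linked gene Ddx3y had 959 to 1672 fragments per control and 20, 0 and 0 per I-PpoI mouse, and Xist, made from the inactive X chromosome, had 0 to 4 per control and 0, 70 and 4739 per I-PpoI mouse. I-PpoI mouse 3 thus differed from every control in these sex-linked genes as well as in genotype. In its results, here and below, sex and genotype cannot be told apart. The part of sex in the comparison of all 6 libraries was not tested. Values for I-PpoI mouse 3 alone, whose antisense share lay below that of each control, are therefore given beside those of the group.

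An antisense model, Gm48796, overlaps the exons of Jam3 on the other strand. Control mice 1, 2 and 3 gave 1434, 1696 and 1300 fragments of Jam3, and I-PpoI mice 1, 2 and 3 gave 61, 18 and 696. Of Gm48796 the controls gave 36, 26 and 52 fragments and the I-PpoI mice 891, 266 and 9. In the 2 shallow libraries the antisense model outnumbered the gene, and in the other 4 the gene outnumbered the model. Milr1, which lies within 5 kb of Pecam1 on the other strand, read 5.29 and 4.82 FPKM for I-PpoI mice 1 and 2 and 0.350 to 0.668 FPKM for the remaining 4 libraries. Other opposite-strand neighbours within 5 kb lay within or below the range of the remaining 4 libraries: Cdc45, near Cldn5, read 0.356 and 0 FPKM against 0.29965 to 0.568, Atp5j, near Jam2, 33.1 and 17.2 against 24.0 to 56.8, and Ncapd3, near Jam3, 2.61 and 1.51 against 1.93 to 3.51. Esam and Tjp1 have no gene within 5 kb on the other strand. The models of that kind near Cdh5, Ocln and Jup had 0 fragments in every library. F11r also has an opposite-strand neighbour within 5 kb, Gm26641, whose values were not examined here.

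**Figure D1:**
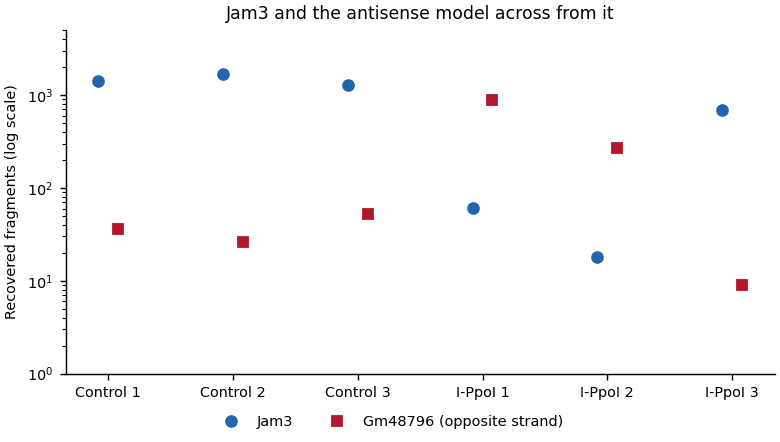
Recovered fragments (log scale) of Jam3 (circles) and of the opposite-strand model Gm48796 (squares) in each of the 6 libraries. Jam3 lies above Gm48796 in the controls and in I-PpoI mouse 3, and below it in I-PpoI mice 1 and 2.

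In control endothelium the 10 genes spanned more than 2 orders of magnitude per length. Cldn5 had the highest mean FPKM and Ocln the lowest. Cldn5 stood at 330 ± 78.9 FPKM (SD, n = 3), Cdh5 at 307 ± 35.3, Pecam1 at 230 ± 29.98, Esam at 186 ± 28.6, F11r at 122 ± 22.7 and Jup at 113 ± 12.5 FPKM. Below these came Jam2 at 55.7 ± 17.5, Tjp1 at 52.2 ± 17.6, Jam3 at 29.8 ± 7.07 and Ocln at 1.27 ± 0.404 FPKM (SD, n = 3). The control ranges of Cldn5 and Cdh5 overlapped, as did those of Pecam1 and Esam, F11r and Jup, Jam2 and Tjp1, and Tjp1 and Jam3. Neighbours whose control ranges did not overlap were Cdh5 and Pecam1, Esam and F11r, Jup and Jam2, and Jam3 and Ocln. Control mouse 2 differed from the other controls in a way that followed transcript length. Over protein-coding genes its log2(FPKM + 1) lay 0.37 above the mean of control mice 1 and 3 for exon lengths under 3 kb and -0.32 from it for 6 kb or more. Tjp1, with 7811 bases of exon, was at -0.92 and Jam2, with 6045, at -0.77 in that mouse, while the 1416-base Cldn5 was at 0.43. Jup, with 6436 bases, did not follow and was at 0.25. The median from 3 to 6 kb was -0.01, and genes of that length departed from it both ways. Jam3 was at 0.53, Ocln at 0.29 and Cdh5 at -0.30.

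Across all 6 libraries the 9 genes tested were lower in the I-PpoI group as deposited, and none passed the test. With limma on log2(FPKM + 1) and Benjamini-Hochberg adjustment over all genes, 0 of 9 were called at adjusted p under 0.05, beside 0% of all genes tested. At unadjusted p under 0.05, 8 of 9 were lower (Jup was not), beside 32.5% of all genes. The median log2 fold change was -1.65 for the 9 genes and -0.65 for all genes tested. The scale understates changes of low genes, which can hold medians over all genes nearer to 0, here and below. The filter used the mean over all 6 libraries, so genes with reads only in the 2 shallow libraries also entered. Such genes can make all genes together look less lowered, here and below. With I-PpoI mouse 3 as the only I-PpoI library, 1642 of 14962 genes lay above 0, 12780 below and the others at 0. The 3 I-PpoI libraries lay below the 3 controls for 7 of 9, beside 45.1% of all genes. Without I-PpoI mouse 3, which leaves only the 2 shallow libraries in that group, limma called 6 of 9 lower (not Cdh5, Cldn5 and Jup), beside 36.8% of all genes, and leaving out any other single library called 0. Rescaling FPKM to an equal sum per library, as TPM does, called 8 of 9 lower, beside 31.8%.

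With I-PpoI mouse 3 as the only I-PpoI library, 0 of 9 passed in either direction by limma, beside 0% of all genes lower and 0.147% higher; 6 of 9 were lower at unadjusted p under 0.05, beside 24% of all genes. The log2 differences from control were then -1.03 for Cdh5, -1.12 for Pecam1, -2.37 for Cldn5, -1.34 for Esam and -0.96 for F11r. For Jam2, Jam3, Tjp1 and Jup they were -1.15, -0.81, -0.78 and -0.98. Their median was -1.03, beside -0.54 for all genes. In bulk samples, fewer endothelial cells and less RNA per cell cannot be told apart. The p-values over all 6 libraries rest on the spread between libraries of each group. In the I-PpoI group that spread takes in the differences of depth and strand as well as those between mice. Those p-values with I-PpoI mouse 3 alone rest on the spread of the 3 controls.

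**Figure D2:**
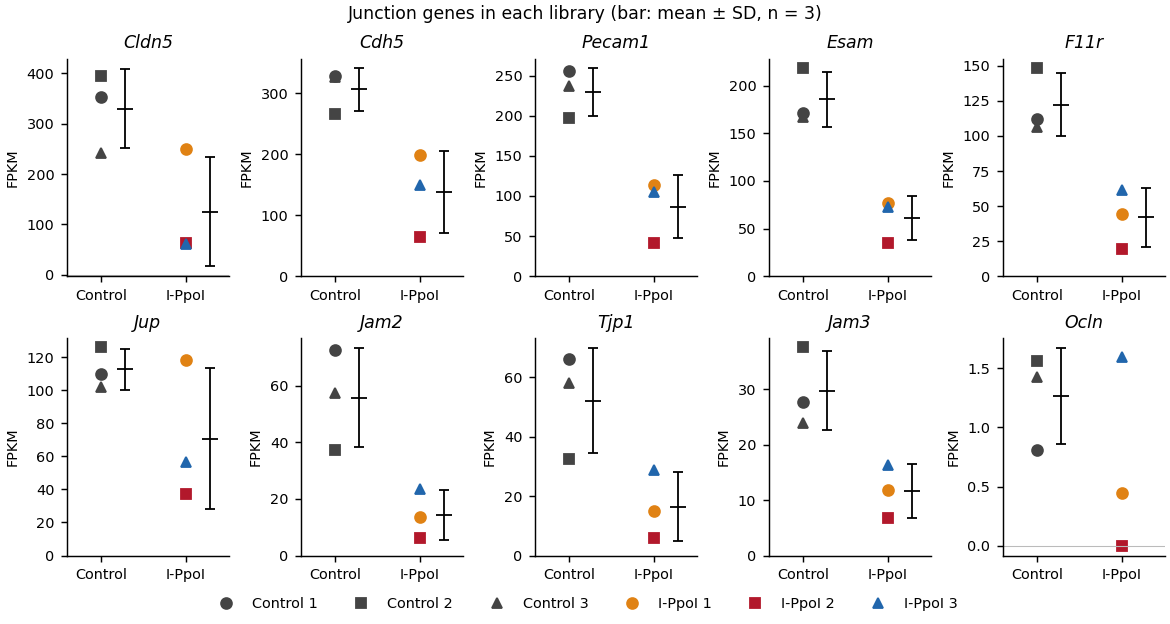
FPKM of the 10 junction genes in each library, as deposited, with each axis reaching 0 and its own scale; bars give the mean ± SD (n = 3), left out for Ocln in the I-PpoI group. The I-PpoI points lie below the control points for 7 of the 10 genes; the groups overlap for Cldn5, Jup and Ocln.

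The adherens junction pair consists of Cdh5, the VE-cadherin that makes the contact, and Jup, plakoglobin, the catenin-family protein that binds its tail. For Cdh5 (ENSMUSG00000031871, GRCm38 chromosome 8, 104101625 to 104144511), the control libraries gave 328, 266 and 327 FPKM while the I-PpoI libraries gave 199, 65.03 and 149 FPKM. The groups did not overlap, and I-PpoI mouse 2 was lowest. The log2 fold change was -1.29 (SE 0.47, limma adjusted p = 0.127). Jup (ENSMUSG00000001552, chromosome 11, 100368958 to 100397763) read 110, 126 and 102.0 FPKM for control mice 1, 2 and 3, and 119, 37.5 and 56.4 FPKM for I-PpoI mice 1, 2 and 3. Its groups overlapped through I-PpoI mouse 1, which stood among the controls, and its log2 fold change of -0.82 (SE 0.47, limma adjusted p = 0.194) was nearest to 0 of the 9. Set against Cdh5 in the same library, Jup reached 33.5%, 47.5% and 31.2% of the Cdh5 FPKM per control and 59.6%, 57.6% and 37.8% per I-PpoI mouse, in order of number. The higher ratio was thus in the 2 libraries with the strand difference, and I-PpoI mouse 3 was within the control range.

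The tight junction genes are Cldn5, the main sealing claudin of endothelium, Ocln, occludin, and Tjp1, the scaffold protein ZO-1. The 250 bases before a RefSeq start of Cldn5, of Ocln and of Jup are printed because Cldn5 was lowest against control in I-PpoI mouse 3, Ocln was the lowest in level and Jup had the fold change nearest to 0. Capitals mark GGGCGG on either strand, that is GGGCGG or CCGCCC, the letters bound by SP1. The sequences are RefSeq GRCm38.p6 from the tables of gene starts, 5′ to 3′ on the gene's strand: Cldn5 chr16:18776597-18776846 (+), Ocln chr13:100552719-100552968 (-) and Jup chr11:100397791-100398040 (-).
Cldn5: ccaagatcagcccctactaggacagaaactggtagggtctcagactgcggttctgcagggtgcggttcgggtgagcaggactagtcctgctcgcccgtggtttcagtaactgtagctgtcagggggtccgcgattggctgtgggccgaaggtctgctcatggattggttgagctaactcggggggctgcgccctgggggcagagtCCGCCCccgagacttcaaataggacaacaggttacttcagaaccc
Ocln: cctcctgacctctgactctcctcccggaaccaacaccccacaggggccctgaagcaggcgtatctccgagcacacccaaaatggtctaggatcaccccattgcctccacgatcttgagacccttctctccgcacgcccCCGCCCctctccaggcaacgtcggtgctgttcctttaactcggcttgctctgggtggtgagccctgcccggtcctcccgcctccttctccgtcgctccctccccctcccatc
Jup: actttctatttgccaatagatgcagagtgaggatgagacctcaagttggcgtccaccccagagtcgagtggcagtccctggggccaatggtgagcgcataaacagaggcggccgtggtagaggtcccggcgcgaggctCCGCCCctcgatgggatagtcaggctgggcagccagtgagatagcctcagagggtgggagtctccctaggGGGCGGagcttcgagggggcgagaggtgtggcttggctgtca
These windows held 1, 1 and 2 matches to GGGCGG, which 32.7% of 32851 windows of this length held. The ETS-type letters CAGGAA or CCGGAA occurred on either strand in 35.1% of windows; the Ocln window printed held 1 match, and Cldn5 and Jup held 0. RefSeq has a second start of Ocln, whose window, chr13:100552499-100552748, held 1 match to GGGCGG and 0 to the ETS-type letters. The SOX-type letters ACAAT were in 27.7% of windows and in 0 of these 3. The 3 sets of letters were searched separately, each on both strands, and a match describes letters and not a site. The table of gene starts matched 5 of the 10 symbols, F11r and Tjp1 being the others, and did not match Cdh5, Pecam1, Esam, Jam2 or Jam3.

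For Cldn5 (ENSMUSG00000041378, chromosome 16, 18776847 to 18778262), the control libraries gave 354, 394 and 242 FPKM while the I-PpoI libraries gave 250, 63.2 and 61.8 FPKM. I-PpoI mouse 1 lay inside the control range and the other I-PpoI mice lay far below it. Its log2 fold change was -1.69 (SE 0.61, limma adjusted p = 0.126), with the largest SE of the 9. In I-PpoI mouse 3 Cldn5 stood at 18.7% of the control mean, while the other 8 tested genes stood at 39.02% to 55.02% of theirs. Only 14 of 14962 genes had a lower log2 difference from control in that mouse. For Esam, the next of the 9, the number was 291, and for Tjp1 it was 3719. The rank was taken on log2(FPKM + 1), which understates changes of low genes, so a high gene such as Cldn5 could more readily rank low. Relative to Cdh5 in the same library, Cldn5 reached 108%, 148% and 74.0% per control and 126%, 97.2% and 41.4% per I-PpoI mouse, in order of number. With only that I-PpoI library in the fit and its spread assumed to be that of the controls, the log2 difference was -2.37 (SE 0.38, limma adjusted p = 0.174). The low value thus rested on 1 library of full depth and was not past the threshold.

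Tjp1 (ENSMUSG00000030516, chromosome 7, 65296165 to 65527781) read 66.1, 32.3 and 58.02 FPKM for control mice 1, 2 and 3, and 14.8, 5.81 and 28.7 FPKM for I-PpoI mice 1, 2 and 3. The groups did not overlap, but control mouse 2 at 32.3 was close to I-PpoI mouse 3 at 28.7. The log2 fold change was -1.79 (SE 0.60, limma adjusted p = 0.124), and without both shallow libraries it was -0.78 (adjusted p = 0.341 by limma). Ocln (ENSMUSG00000021638, chromosome 13, 100496507 to 100552718) was at 0.806, 1.57 and 1.43 FPKM in the controls, at 0.443 FPKM in I-PpoI mouse 1 and at 1.60 FPKM in I-PpoI mouse 3. It was listed at 0 for I-PpoI mouse 2, where a count of 0 allows up to 3 fragments, or 0.848 FPKM. Behind these values stood 55, 93 and 102 fragments per control and 3, 0 and 90 per I-PpoI mouse. Ocln was thus the 1 gene of the 10 that was not lower in I-PpoI mouse 3, and a difference of I-PpoI mouse 2 from control mouse 1 was not detectable at that depth.

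The junctional adhesion molecules are F11r (JAM-A), Jam2 (JAM-B) and Jam3 (JAM-C), which bind one another and leukocyte integrins across the cleft, and Esam is their endothelial relative. For F11r (ENSMUSG00000038235, chromosome 1, 171437535 to 171464603), the control libraries gave 112, 148 and 107 FPKM while the I-PpoI libraries gave 44.3, 19.7 and 61.8 FPKM. Jam2 (ENSMUSG00000053062, chromosome 16, 84774123 to 84825928) read 72.4, 37.4 and 57.2 FPKM for control mice 1, 2 and 3, and 13.5, 6.12 and 23.6 FPKM for I-PpoI mice 1, 2 and 3. Neither gene's groups overlapped, and in both I-PpoI mouse 3 was the nearest to the controls. Jam2 had the lowest log2 fold change of the 9, at -2.00 (SE 0.53, limma adjusted p = 0.124), and F11r was at -1.65 (SE 0.47, limma adjusted p = 0.124). For Jam3 (ENSMUSG00000031990, chromosome 9, 27097384 to 27155421), the control libraries gave 27.7, 37.7 and 23.97 FPKM while the I-PpoI libraries gave 11.9, 6.71 and 16.3 FPKM, a log2 fold change of -1.34 (SE 0.40, limma adjusted p = 0.124). Its 2 lowest values come from the libraries in which the opposite-strand model exceeded it.

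Esam (ENSMUSG00000001946, chromosome 9, 37528078 to 37538319) read 172, 219 and 167 FPKM for control mice 1, 2 and 3, and 77.2, 35.0 and 72.5 FPKM for I-PpoI mice 1, 2 and 3. I-PpoI mice 1 and 3 were close to each other and well below every control. Its log2 fold change was -1.65 (SE 0.40, limma adjusted p = 0.124). For Pecam1 (ENSMUSG00000020717, chromosome 11, 106654217 to 106750628), the border protein used for the sort, the control libraries gave 256, 197 and 237 FPKM while the I-PpoI libraries gave 113, 41.6 and 104 FPKM. The log2 fold change was -1.52 (SE 0.46, limma adjusted p = 0.124). Pecam1 followed Cdh5 more closely than any other pair of the 10 did. The root mean square difference between their log2(FPKM + 1) profiles, each centred on its own mean over the 6 libraries, was 0.148, ahead of Jam2 with Tjp1 at 0.160 and Esam with F11r at 0.190. As a share of Cdh5, Pecam1 was at 78.02%, 73.96% and 72.4% per control and at 56.9%, 63.9% and 70.0% per I-PpoI mouse.

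The level of every one of these genes in the I-PpoI group depended on what it was counted against. With non-mitochondrial fragments as the total of each library, Cdh5 in I-PpoI mouse 3 was at 288 FPKM against 359, 313 and 400 in the controls, which is 80.6% of the control mean in place of 48.6%. On that scale Jam3 and Tjp1 were at 90.9% and 91.6%, F11r at 83.6%, Jup at 82.9%, Pecam1 at 75.5%, Jam2 at 70.7% and Esam at 64.6% of their control means in I-PpoI mouse 3. Cldn5 was at 31.2%, or 119 FPKM against 388, 464 and 296, and Ocln was at 207%, or 3.09 FPKM against 0.884, 1.84 and 1.74. Cldn5 thus remained the lowest of the 10 and Ocln the highest in that library. I-PpoI mouse 3 lay below every control for 9 of 9 tested genes as deposited, beside 70.7% of all genes, and for 6 of 9 on the non-mitochondrial total, beside 23.7%. All 3 I-PpoI libraries lay below the controls for 5 of 9 on that total, beside 14.5%, and the median log2 fold change was -1.30, beside -0.39 for all genes. In I-PpoI mouse 3 alone, Jam2, Jam3 and Tjp1 were the 3 of the 9 that lay inside the control range on that total. What part the mitochondrial share has in the deposited values of I-PpoI mouse 1, at 6.42%, was not tested.

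**Figure D3:**
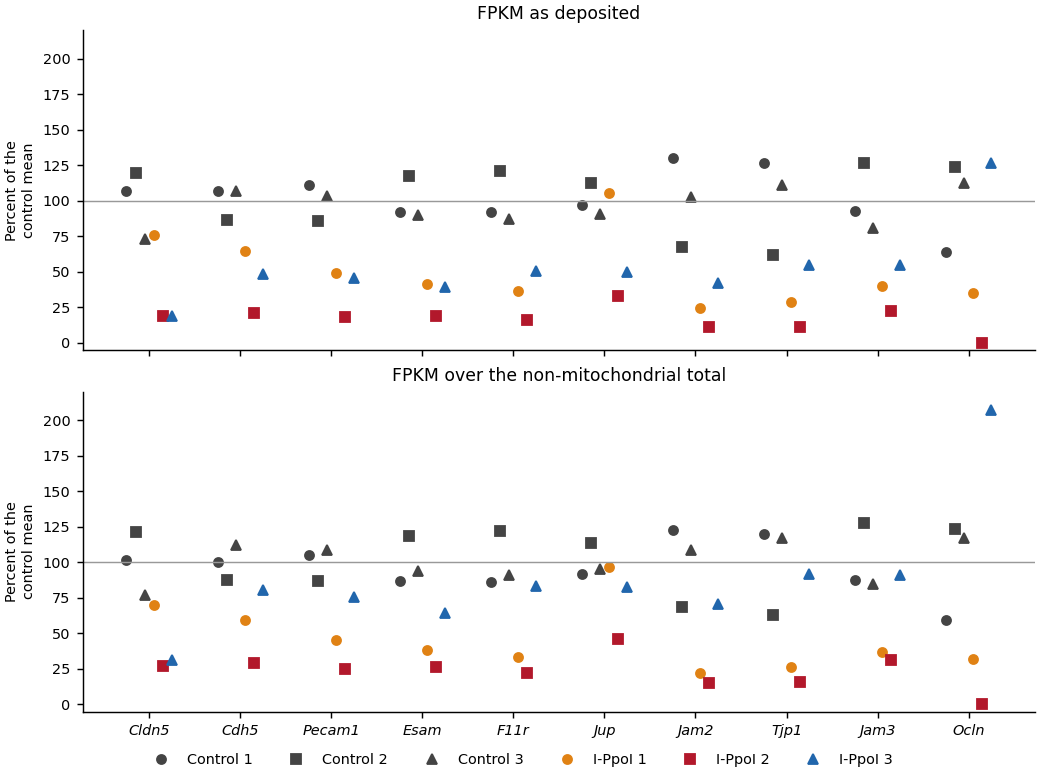
Each library as a percent of the control mean for the 10 genes, from FPKM as deposited (top) and from FPKM over the non-mitochondrial total (bottom). In I-PpoI mouse 3 (triangles, blue) the 9 tested genes stand at 18.7% to 55.02% in the top panel; in the bottom panel Cldn5 stands at 31.2% and the other 8 at 64.6% to 91.6%.

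Scalings that use other genes as the reference gave other values again. After median-of-ratios scaling, with which all genes had a median log2 fold change of -0.01, the 9 genes had a median of -0.84 and ran from -1.23 (Jam2) to -0.02 (Jup). None passed; the adjusted p by limma was 0.311 for Pecam1, Esam, F11r and Jam2 and 0.319 to 0.983 for the other 5. The groups did not overlap for those first 4 genes, that is 4 of 9, beside 10.7% of all genes. I-PpoI mouse 3 lay below every control for 7 of 9 (not Jam3 and Tjp1), beside 27.5%, and 2 of 9, Esam and Jam2, were lower at unadjusted p under 0.05, beside 3.66%. Over all genes, 847 were then higher and 548 lower at that p, against 646 and 4857 as deposited. When each library was instead set to an equal median of 20 endothelial reference genes (such as Kdr, Tie1 and Emcn), 7 of 9 lay above 0, from 0.02 for Cldn5 and 0.05 for Esam to 0.42 for Cdh5 and 0.88 for Jup, and 2 below it, Jam2 at -0.37 and Tjp1 at -0.16. None passed by limma (adjusted p from 0.242 to 0.986), and the median of all genes was then 0.73. Over all genes, 12539 of 14962 lay above 0 on that scale and 16.2% below, against which the 7 of 9 is to be read. In I-PpoI mouse 3 alone on that scale, Cldn5 was at -1.19 and the other 8 between -0.16 (Esam) and 0.38 (Tjp1). No difference of the junction genes from the endothelial reference passed the test, which does not show that they were alike, and the sign of the fold change depended on the scaling for 7 of the 9 over all 6 libraries and, with Tjp1, Cdh5, Pecam1, F11r, Jam3 and Jup, for 6 of the 9 with I-PpoI mouse 3 alone.

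**Figure D4:**
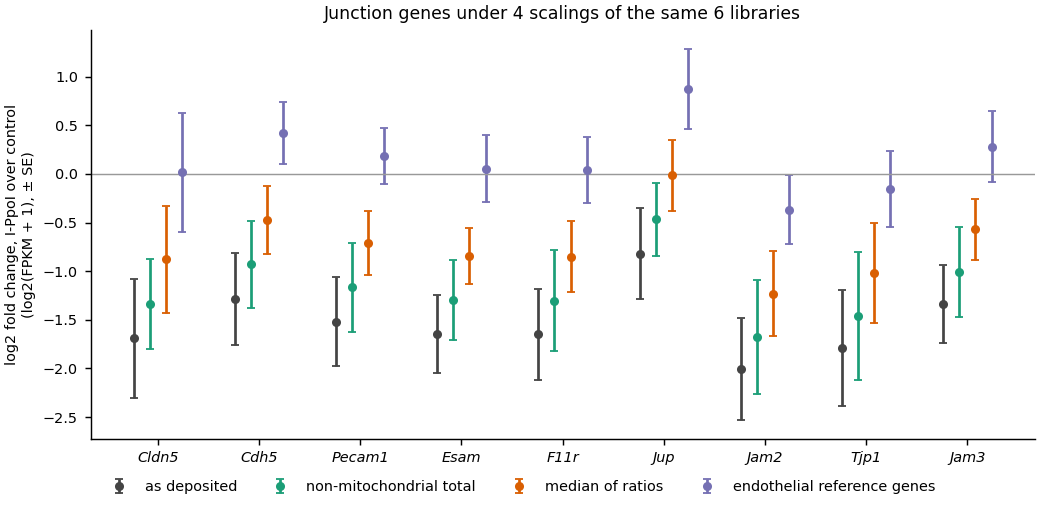
Log2 fold change, I-PpoI over control, with its SE for the 9 tested genes under 4 scalings of the same 6 libraries (3 and 3 mice). Values lie below 0 under the first 3 scalings. Against endothelial reference genes 7 of the 9 lie above 0 and Jam2 and Tjp1 below. Of all 14962 genes tested, 12539 lie above 0 on that last scaling.

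Other genes of the same borders were read from 5 lists, 67 genes in all, of which 63 were tested and 0 passed by limma; 32 were lower and 0 higher at unadjusted p under 0.05, where 32.5% of all genes were lower. Over all genes tested, 71.6% had a log2 fold change below 0, against which the counts below 0 in these lists are to be read. The median log2 fold change of the 63 was -0.99, between that of all genes (-0.65) and that of the 9 junction genes (-1.65). Of the adherens junction and catenin genes 13 of 14 were tested, 12 of them below 0, with a median of -1.13. Ctnnb1, beta-catenin, was at 69.01 ± 27.8 FPKM in I-PpoI against 182 ± 17.3 in control (SD, n = 3 each), Ctnnd1, p120-catenin, at 3.42 ± 2.47 against 12.2 ± 3.69 and Ptprm at 11.8 ± 4.70 against 27.9 ± 7.83 FPKM. Beta-catenin, which binds the same VE-cadherin tail as plakoglobin, had its gene at 53.6% of its control mean in I-PpoI mouse 3.

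The other tight junction genes had a median of -0.27, nearer to 0 than that of all genes, with 11 of 15 below 0, close to the share over all genes, and 0 past the threshold. Cldn15, a claudin, was at 28.1 ± 8.38 against 82.1 ± 12.5 FPKM (SD, n = 3 each) and stood at 38.1% of the control mean in I-PpoI mouse 3. Magi3 was at 2.68 ± 0.516 against 5.12 ± 0.653 and the scaffold protein Mpdz at 2.74 ± 1.39 against 6.21 ± 2.02 FPKM. Of the connexins, the proteins of gap junctions, 6 of 7 were tested, 5 of them below 0, with a median of -1.19. Gja5 was at 18.5 ± 7.36 against 57.4 ± 5.59, Gja1 at 1.36 ± 1.08 against 5.54 ± 1.46 and Gja4 at 45.9 ± 24.8 against 123 ± 26.9 FPKM (SD, n = 3 each); Gja4 was at 27.2% of its control mean in I-PpoI mouse 3, the lowest of the tested genes in these 5 lists. Gjb2 and Gjb1, named after their values were seen, stood at 404% and 179% of their control means in that mouse, at 3.74 and 3.30 FPKM; over all 6 libraries their log2 fold changes were 0.69 and -0.65, neither past the threshold.

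Border and diapedesis genes had a median of -1.15, with 11 of 11 below 0. Plvap of this list, Tek of the regulators and Ptprb of the adherens junction list are also among the 20 endothelial reference genes. Icam2 was at 50.9 ± 18.7 against 157 ± 35.1, the tetraspanin Cd151 at 35.2 ± 13.6 against 103 ± 17.6 and Cd99l2 at 4.37 ± 1.98 against 12.2 ± 0.836 FPKM (SD, n = 3 each). Junction regulators, the small GTPases, kinases and receptors that set junction tension, had a median of -1.36, with 18 of 18 tested below 0. Rhoa was at 22.7 ± 14.9 against 81.4 ± 10.3, the sphingosine-1-phosphate receptor S1pr1, which is also 1 of the 20 endothelial reference genes, at 31.1 ± 18.7 against 110.5 ± 19.1 and Rac1 at 43.9 ± 20.3 against 131 ± 9.25 FPKM (SD, n = 3 each). With non-mitochondrial fragments as the total and without both shallow libraries, the median of the 63 was -0.01, beside -0.30 for the 9 junction genes and 0.00 for all genes. Of all 14962 genes, 6942 lay above 0 and 7480 below in that fit. The median of all genes thus fell among genes at exactly 0.

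Markers of endothelium and of the cells next to it were summed in each library. The 20 endothelial reference genes were all detected and summed to 3120 to 3500 FPKM in the controls and to 1015 to 2523 FPKM in the I-PpoI mice, led by Eng and Sox18, so the defining markers of the labelled cell type were present in every library. They stood at 28.8% to 57.3% of the control mean in I-PpoI mouse 3, the range within which 8 of the 9 tested junction genes also lay. Proximal tubule markers, led by Aqp1 and Kap, summed to 804 to 1551 FPKM in the controls and to 329, 884 and 1832 FPKM in I-PpoI mice 1, 2 and 3, with 10 of 12 above every control in I-PpoI mouse 3. Epithelial junction genes, led by Cdh16 and Epcam, summed to 109 to 178 FPKM in the controls and to 71.2, 122 and 236 FPKM in the I-PpoI mice, with 4 of 16 above every control in I-PpoI mouse 3; their median log2 fold change was -0.30 (13 tested, 0 passed). How many of all genes lay above every control in I-PpoI mouse 3 was not counted, so these counts have no background. The part of the tubule signal in Ocln, Tjp1, F11r and Jup was not tested.

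Distal nephron markers (Umod and Aqp2 highest) summed to 217 to 276 FPKM in the controls and 125 to 173 in the I-PpoI mice. Mural and fibroblast markers (Acta2 and Rgs5) summed to 508 to 852 against 251 to 323 FPKM. That sum is mostly of mural genes. Of the 10 members, 3 were above every control in I-PpoI mouse 3, a count without a background over all genes. Among them were Dcn at 452% and Col1a1 at 234% of their control means, both named after their values were seen. Leukocyte markers (Lyz2 and Cd79a) summed to 28.9 to 82.2 against 26.2 to 50.4 and lymphatic markers (Flt4 and Ccl21a) to 36.0 to 39.3 against 15.8 to 30.3 FPKM. Platelets carry PECAM-1, ESAM and JAM proteins of their own; their markers (Itgb3 and Pf4) summed to 12.2 to 29.4 FPKM in the controls and 5.54 to 5.94 in the I-PpoI mice, and Gp1bb was at 0 in every library. No member of any of these lists passed over all 6 libraries.

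**Figure D5:**
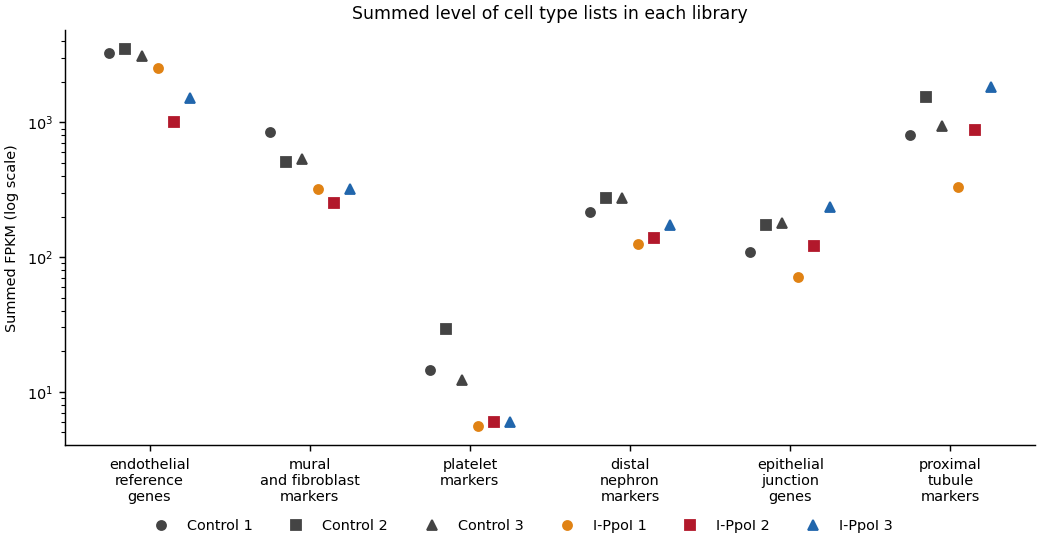
Summed FPKM (log scale) of 6 cell type lists in each library. Endothelial, mural, platelet and distal nephron sums are lower in every I-PpoI library than in every control; proximal tubule and epithelial junction sums are highest in I-PpoI mouse 3 and lowest in I-PpoI mouse 1.

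The genes nearest to Cdh5 and Ocln over the 6 libraries were sought by the same measure among 6488 protein-coding genes whose mean reached 5 FPKM. For Cdh5 they were Sfpq (0.102), Tspan9 (0.104), Itga5 (0.104) and Elf1 (0.105), all closer than Pecam1 at 0.148. For Ocln they were Abhd17c (0.159), Cdh1 (0.169), Fam174b (0.174) and Got1 (0.175). Ocln had only 3 and 0 fragments in I-PpoI mice 1 and 2, and log2(FPKM + 1) understates changes of so low a gene. Its profile, and so this match, is poorly measured. Cdh1, which encodes E-cadherin, the cadherin of epithelial adherens junctions, was at 7.66, 8.22 and 10.6 FPKM per control and at 5.73, 3.91 and 9.25 FPKM per I-PpoI mouse. No junction gene of the 10 other than Ocln had a profile in which I-PpoI mouse 3 reached the controls as deposited.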

How the data were processed

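The deposited file gives FPKM per gene for 6 libraries, normalized by the authors to gene length and counted fragments. Per the submitters' processing notes, DESeq2 1.28.13 was used with builds mm10 and GRCm38. The strand setting, aligner and counter were not given in the sources used here. Per the labels' protocols, total RNA libraries were read from both ends over 100 cycles. Of the file's gene IDs, 55227 are in GENCODE M21, whose exon lengths were used here.

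Fragments recovered from FPKM and exon length were whole, within 0.05, for 98.5% to 98.6% of values under 1000 fragments. Limma 3.58.1 (R 4.3.3, trend) was run on log2(FPKM + 1) where a gene's mean reached 1 FPKM, 3 control against 3 I-PpoI mice, p-values being adjusted by Benjamini-Hochberg and called under 0.05. This scale understates changes of low genes. The fit was tested on simulated data. The step used python 3.11.15, numpy 2.4.6, pandas 2.3.3 and matplotlib 3.10.9.

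The genes, lists and tests were chosen with earlier results of these data known. Named genes are the 10, the 3 of smallest p per other junction list, the 2 highest per marker list and the 4 nearest to Cdh5 and to Ocln. The ranks of Cldn5, the opposite-strand models and the promoters were added after values were seen. The result of 1 further marker list is not reported here. Limits for a count of 0 cover counting error only.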

Additional observations from a re-analysis of the deposited data

How the results depend on the processing

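The count of 0 junction genes past the threshold held for a pseudocount of 0.1, no filter, a filter at 5 FPKM, median-of-ratios, non-mitochondrial and endothelial reference scaling, limma-voom on recovered fragments and the fits without both shallow I-PpoI libraries. It became 8 of 9 (all lower, beside 31.8% of all genes) with FPKM rescaled to an equal sum per library, as TPM does. Leaving out 1 library gave 0 to 6 junction genes, 0 to 8474 of all genes and 0 to 33 other junction genes; each upper value came from leaving out I-PpoI mouse 3, which leaves the 2 shallow libraries (5509 of all genes lower, 36.8%). With that rescaling, 5591 of all genes and 34 other junction genes passed. Without both shallow libraries, where the lone I-PpoI library takes its spread from the controls, 22 of all genes passed, 47 with median-of-ratios scaling, 52 with the non-mitochondrial total, and 74 with endothelial reference scaling, which also called 1 other junction gene, the connexin Gjb2, higher (limma adjusted p = 0.0415). The non-mitochondrial total and the fits that combine a scaling with leaving out both libraries were chosen after seeing the data. The cause of these differences was not tested. The sign turned only against endothelial reference genes, to 0.42 for Cdh5, 0.19 for Pecam1, 0.0180 for Cldn5, 0.0515 for Esam, 0.0377 for F11r, 0.28 for Jam3 and 0.88 for Jup, and, without both shallow libraries, to 0.15 for Cdh5, 0.0560 for Pecam1, 0.21 for F11r, 0.32 for Jam3, 0.38 for Tjp1 and 0.19 for Jup. On that scale 12539 of all 14962 genes tested lay above 0, and 12126 without both shallow libraries.

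The replicate block called 0 genes, as did the fit without it; same-numbered libraries correlated at 0.09, 0.06 and -0.02, so the numbers were not taken as pairs, and 4 of 6 libraries correlated best with their own number. The fit was also run on counts simulated at the recovered totals over 12514 genes, with 200 changed genes and a dispersion of 0.05. It recovered 8.79% of 2-fold and 86.2% of 4-fold changes and made 13 false calls. The simulated counts came from the control profile and held no strand difference and no mitochondrial shift. These rates are therefore not the power of the comparison of the real libraries. In I-PpoI mouse 2, Jam3, Jam2, Tjp1 and F11r rest on 18, 31, 38 and 44 fragments.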
